A study of Mus musculus with 51 samples.

Results

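Oxidative phosphorylation genes were taken as the autosomal protein-coding genes of GENCODE M21 whose symbol begins with Nduf followed by a, b, c, s or v and a number, with Uqcr, with Cox4 to Cox8 or with Atp5. The rule found 78 genes among 20807 autosomal protein-coding genes. Of these, 35 carry names of complex I subunits (NADH dehydrogenase), 8 of complex III (cytochrome bc1), 17 of complex IV (cytochrome c oxidase) and 18 of complex V (ATP synthase). Genes are assigned to complexes below by these names alone. The 78 gene records have 77 symbols, because Atp5o was annotated as 2 records. X-linked Ndufa1, Ndufb11 and Cox7b were left out because the lists hold chromosomes 1 to 19.

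Complexes I, III and IV pass electrons along the inner mitochondrial membrane to oxygen and pump protons, and complex V uses the proton gradient to make ATP. Most subunits are encoded in the nucleus and are used in all cells with mitochondria. Testis has its own forms of some of these proteins, among them Cox6b2 and Cox8c, which stand beside the somatic Cox6b1, Cox8a and Cox8b, and Cox7b2. H3K4me3 marks promoters that are active or poised, and H3K9ac is an acetylation of the same histone tail that accompanies active promoters.

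Histone marks had been profiled by ChIP-Seq in wild-type adult male C57Bl/6J mice, and the files analysed were lists of peaks. Nuclei from fixed whole testis were stained and sorted by flow cytometry on DNA content and meiotic proteins into the stages leptonema, zygonema, early and late pachynema, and diplonema. H3K4me3 (EpiCypher antibody) was profiled in experiments 1 and 2 of each stage, giving 10 lists, H3K4me2/3 (Abcam antibody) in experiment 2 with 5 lists, and H3K9ac in experiment 1 with 5 lists. The sorted populations are enriched and not pure, and the labels do not say how many mice were pooled or whether the experiments used separate animals, so that the spread between experiments may be technical. No group carries a treatment or mutant allele.

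The 10 H3K4me3 lists held 4883 to 15699 peaks and the 5 H3K9ac lists 516 to 16003. Depth is unknown, because a list holds starts and ends and no read count. All intervals given below cover counting error over genes only. Among 6 meiotic prophase genes, Sycp3 and Hormad1 had an H3K4me3 peak in all 10 lists, and Dmc1 had one in the 4 leptonema and zygonema lists and in none of the 6 later ones. Hist1h1t, the gene of the H1t protein used in sorting, had a peak in leptonema experiment 1 and zygonema experiment 2 and in no later H3K4me3 list. Sycp1 had an H3K4me3 peak in 8 lists and Stra8 in the 2 leptonema lists alone. None of 4 round spermatid genes had a peak in any of the 20 lists. An H3K4me3 list called at most 1 of 3 spermatogonia, 2 of 4 Sertoli, 1 of 4 Leydig and 0 of 3 peritubular and vessel genes. An Abcam list called up to 3 spermatogonia, 3 Sertoli, 1 Leydig and 1 peritubular and vessel genes. The Abcam leptonema list called the Sertoli genes Sox9, Wt1 and Cldn11 and the peritubular and vessel gene Myh11. Of these, only Wt1 and Myh11 were called in Abcam zygonema, and none in a later Abcam list. An H3K9ac list called up to 2 spermatogonia genes and no Sertoli, Leydig or peritubular and vessel gene.

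Oxidative phosphorylation genes were called more often than genes in general in 19 of the 20 lists. A gene counted as called where a peak overlapped the 500 bp on either side of any of its annotated transcription start sites (TSSs). High call rates were not particular to this pathway. Calls in 13 or more of the 20 lists were found at 60 of the 78 genes and 6895 of all 20807. They were also found at 60 of 72 ribosomal protein, 65 of 78 mitochondrial ribosomal protein and 34 of 39 proteasome subunit genes. In leptonema, 58 and 64 of the 78 genes had an H3K4me3 peak in experiments 1 and 2, or 74.4% and 82.1%, against 39.2% and 47.1% of all genes. In zygonema, 63 and 57 genes were called, 80.8% and 73.1%, against 36.9% and 35.9%. In early pachynema, 63 and 52 genes were called, 80.8% and 66.7%, against 34.0% and 25.5%. Late pachynema gave 52 and 59 genes, 66.7% and 75.6%, against 26.8% and 40.3%. Diplonema gave 44 and 61 genes, 56.4% and 78.2%, against 29.3% and 46.8%. The exact binomial 95% interval was 44.7% to 67.6% for the lowest of these shares and 71.7% to 89.8% for the highest.

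The Abcam antibody, which binds H3K4me2 as well as H3K4me3, called 69 of 78 genes in leptonema (88.5%, against 65.7% of all genes). It called 66 genes (84.6%) at each of the 4 later stages, in their order against 60.5%, 54.6%, 56.4% and 54.3% of all genes. H3K9ac followed another course. It was called at 24 genes in leptonema (30.8%, against 14.9% of all genes), at 65 in zygonema (83.3%, against 41.9%), at 64 in early pachynema (82.1%, against 35.7%), at 17 in late pachynema (21.8%, against 8.36%) and at 1 in diplonema (1.28%, against 2.08%). The last share, with an exact 95% interval of 0.0325% to 6.94%, was the only one of the 20 below that of all genes.

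**Figure D1:**
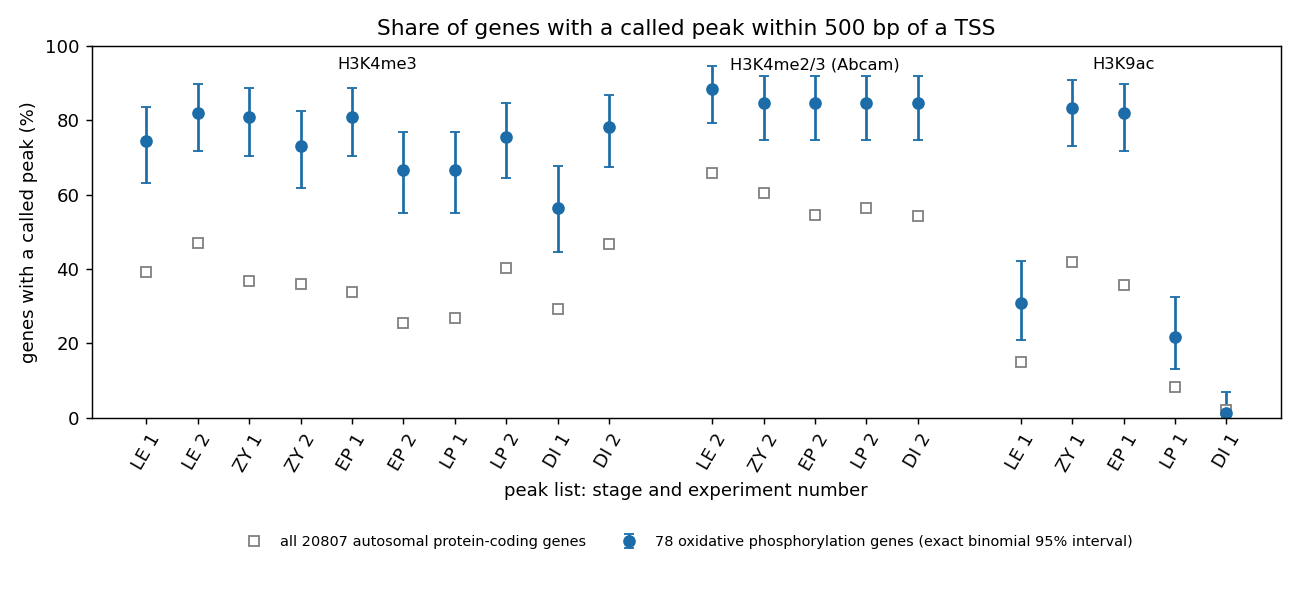
Share of genes with a called peak (%) in each of the 20 lists (LE, leptonema; ZY, zygonema; EP, early pachynema; LP, late pachynema; DI, diplonema, with the experiment number). Filled circles with exact binomial 95% intervals are the 78 oxidative phosphorylation genes and open squares are all 20807 autosomal protein-coding genes. The circles lie above the squares except in the H3K9ac list of diplonema, where 1 gene was called.

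Most of the genes were called in most of the lists. H3K4me3 was called in all 10 lists at 34 genes (43.6%, against 18.2% of all genes) and in no list at 11 genes (14.1%, against 44.8%). Another 7 genes had calls in 2 to 4 lists, none had calls in 1 or 5 lists, and 26 had calls in 6 to 9. Of all 20807 genes, 994, 833 and 683 had H3K4me3 calls in 2, 3 and 4 lists, and 1263 and 602 in 1 and 5 lists. A further 589, 727, 801 and 1200 of all genes had calls in 6, 7, 8 and 9 lists. The Abcam antibody called 65 genes in all 5 of its lists (83.3%, against 48.7% of all genes). Only 5 genes were called in all 5 Abcam lists and in at most 5 H3K4me3 lists (6.41%, against 14.6% of all genes). They were Ndufa3, Ndufa13, Ndufv3, Cox6b1 and Atp5mpl.

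The experiments of a stage differed most at diplonema. Experiment 1 called 44 genes, all of which experiment 2 also called, and experiment 2 called 17 more. Genes in general behaved alike there, with 6095 called in experiment 1, 9747 in experiment 2 and 6073 in both. Diplonema experiment 1 was the sole list without a call at 7 genes (8.97%, against 2.17% of all genes). Of these, 5 carry names of complex I subunits (Ndufa4, Ndufa5, Ndufa9, Ndufa10 and Ndufv1) and the others are Atp5e and Atp5g3. Complex I had 15 of 35 genes called in that list, or 42.9%, which was its lowest share. This list held 6645 peaks and called 29.3% of all genes, more than early pachynema experiment 2 and late pachynema experiment 1, both of which called 52 of the 78 genes. The part of depth or purity in this was not tested.

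**Figure D2:**
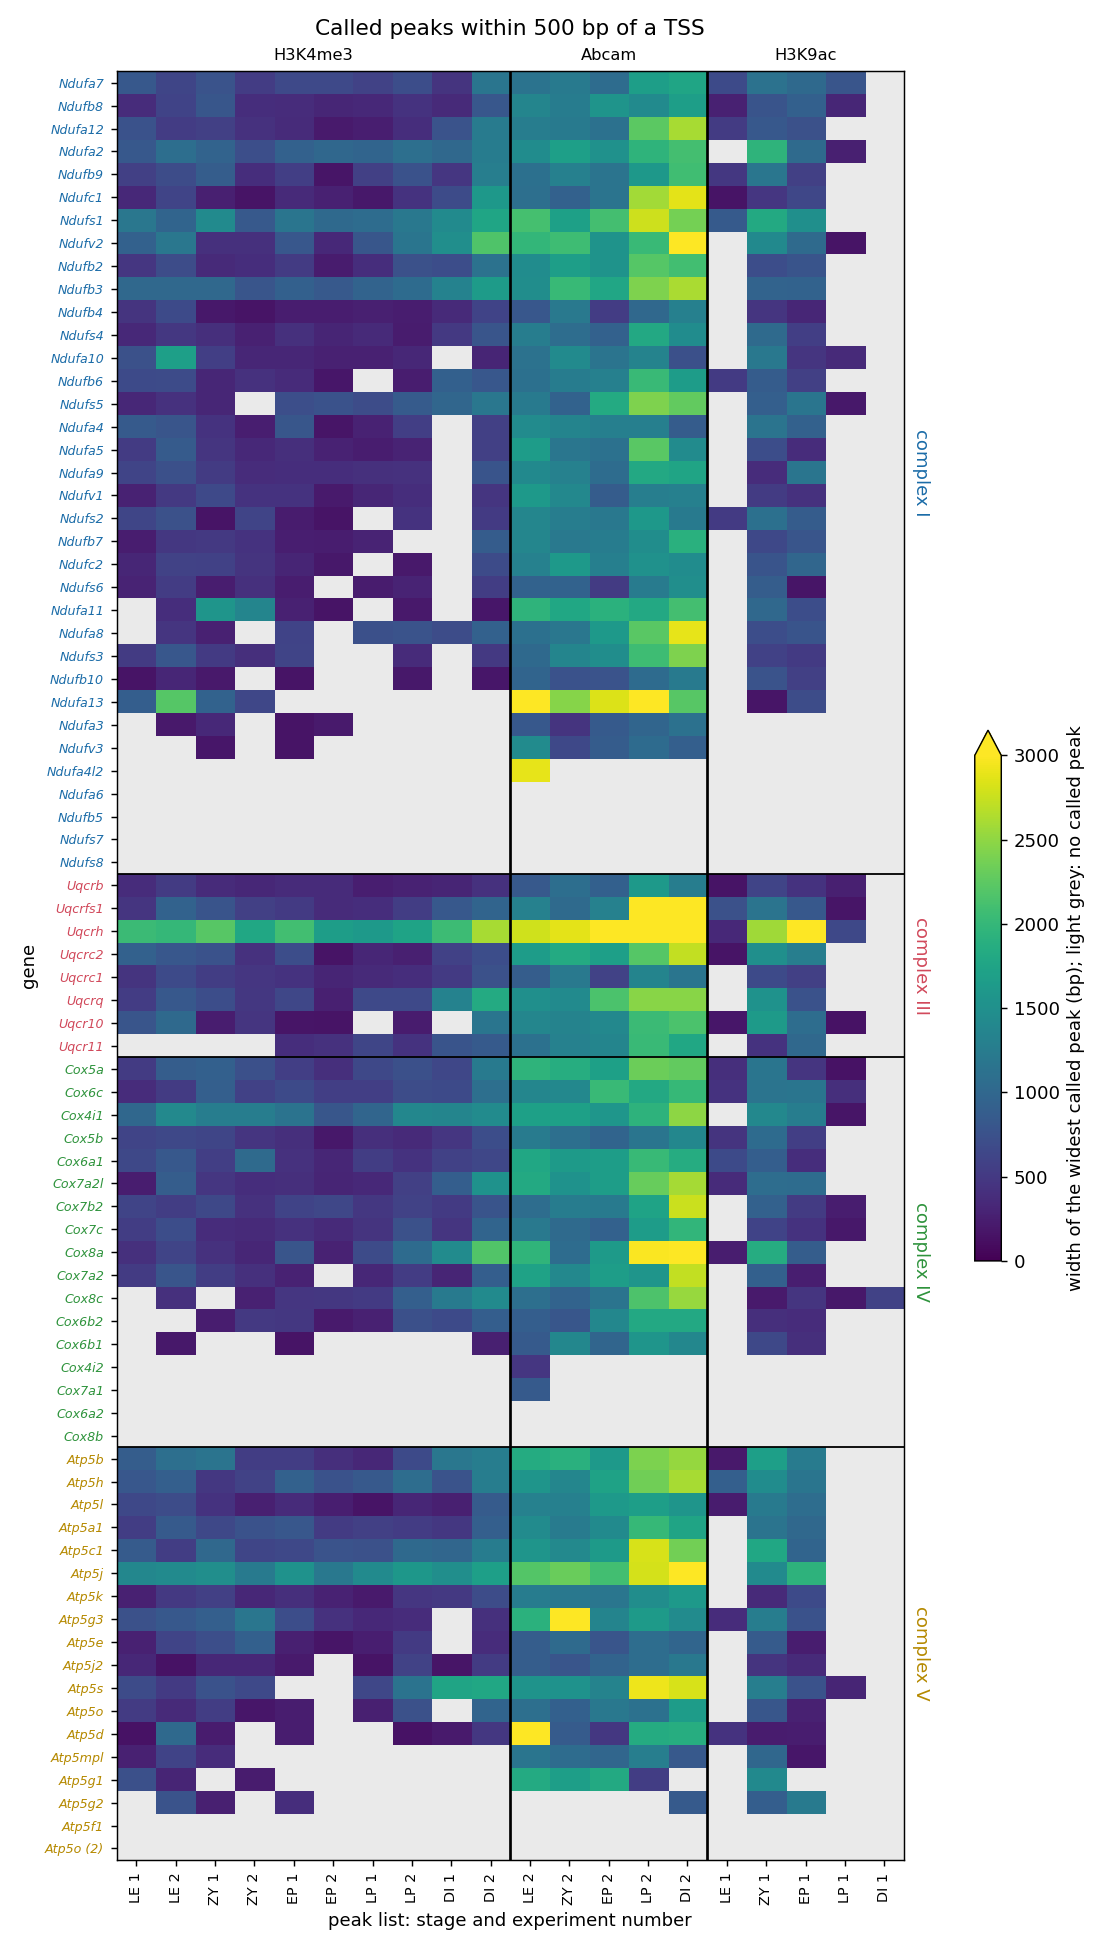
Width in bp of the widest called peak at each of the 78 genes (rows, grouped by complex and ordered by the number of H3K4me3 lists with a call) in each of the 20 lists (columns, labelled by stage and experiment number). Light grey marks no called peak. Most rows are filled across the H3K4me3 and Abcam lists, H3K9ac is filled in zygonema and early pachynema, and Cox8c is the only row filled in diplonema H3K9ac.

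Complex III had the largest share of genes called in all 10 H3K4me3 lists, at 75.0%, although complex V was slightly higher in leptonema experiment 2 (88.9%, against 87.5%). Of its 8 genes, 6 had an H3K4me3 call in all 10 lists, against 12 of 35 in complex I, 9 of 17 in complex IV and 7 of 18 in complex V. No complex III gene lacked a call, whereas 5 complex I, 4 complex IV and 2 complex V genes had none. The share of complex III genes called was 87.5% in each of the 4 leptonema and zygonema lists and 95.8% ± 6.45 (SD, n = 6) in the later lists. Complex IV stood at 66.2% ± 5.63 (SD, n = 4) early and 71.6% ± 4.43 (n = 6) later. Complex I stood at 78.6% ± 6.80 early and 67.6% ± 14.4 later, and complex V at 81.9% ± 6.99 early and 64.8% ± 9.73 later. Early and later lists overlapped for complexes I, IV and V once the share of all genes in each list was subtracted, with an excess in complex V of 36.3 to 46.4 percentage points early and 24.5 to 39.9 later. For complex III this excess was 40.4 to 51.6 points early and 53.2 to 74.5 later, with no overlap. The only complex III gene without a call in the early lists was Uqcr11, in all 4. The separation for complex III therefore rested on Uqcr11 and on the share of all genes subtracted in each list. With only the wider peaks of each list, those at or above its median width, the early-minus-later difference in excess went from -14.3 to -1.19 points for complex III, from 4.97 to -3.51 for complex I and from 11.1 to 2.75 for complex V. Under equal list sizes, with the 4883 widest peaks of every list, it was -17.7 for complex I and -6.11 for complex V, so that the direction for both depended on which peaks were kept.

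Called widely, the genes carried rather narrow peaks. Among all genes called by a list, the median width percentile of the oxidative phosphorylation genes called was 31.7 to 46.9 over the 10 H3K4me3 lists, below 50 in all 10. Their median width was 312 bp to 892 bp, where that of all called genes was 401 bp to 939 bp. For all called genes this median was 638 and 827 bp in leptonema and 686 and 581 bp in zygonema. It was 401 bp to 655 bp in early and late pachynema and 764 and 939 bp in diplonema, so widths in bp depended on the list. In the Abcam lists the median percentile was 45.9 to 55.3. Over the lists that called a gene, the mean percentile ran from 2.67 for Ndufv3, a complex I subunit called in 2 H3K4me3 lists, to 97.9 for Uqcrh, the hinge protein of complex III, called in all 10.

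Uqcrh had the highest mean percentile. Its peaks were 2048 and 2003 bp in experiments 1 and 2 of leptonema, 2225 and 1782 bp in zygonema, 2093 and 1666 bp in early pachynema, 1611 and 1742 bp in late pachynema, and 2057 and 2612 bp in diplonema. The early and later lists thus overlapped. Uqcrh shares its promoter region with Lrrc41, whose TSS lies 198 bp away on the opposite strand, and a peak that covers both cannot be assigned to either gene. Next came Atp5j, a coupling factor of ATP synthase, with a mean percentile of 91.8 and peaks of 1196 bp to 1690 bp. Its TSS lies 501 bp from that of Gabpa, which encodes the DNA-binding subunit of a factor known for promoters of mitochondrial genes. Cox4i1, a core nuclear subunit of complex IV opposite Emc8, followed at 85.6, and Ndufs1, an iron-sulfur subunit opposite Eef1b2, at 84.8.

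Such shared promoters were common. Another protein-coding TSS lay within 1000 bp of the principal TSS at 26 of the 78 genes (33.3%), against 13.0% of all genes, and at 13 of the 34 called in all 10 H3K4me3 lists. Among those 34, the 3 genes with the highest mean percentile in each complex had such a neighbour in 9 of 12 cases and the 3 lowest in 2 of 12, Uqcrb and Atp5a1, and the part of the neighbour in the width was not tested. In complex I the highest were Ndufs1, Ndufb3 (78.9) and Ndufa2 (74.9), and the lowest were Ndufc1 (28.2), Ndufs4 (25.7) and Ndufb4 (18.5). In complex III, the lowest was Uqcrb at 22.0, after Uqcrc1 at 34.1 and Uqcrc2 at 39.3. In complex IV, Cox4i1 was followed by Cox5a at 56.7 and Cox8a at 53.2, and the lowest were Cox5b at 33.7, Cox7c at 38.4 and Cox7a2l at 40.3. In complex V, Atp5j was followed by Atp5c1 at 65.5 and Atp5h at 64.7, and the lowest were Atp5l at 25.3, Atp5k at 26.8 and the alpha subunit gene Atp5a1 at 52.3.

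The genes as a set did not pass a test of early against later stages. The share called was 77.6% ± 4.50 (SD, n = 4) in leptonema and zygonema and 70.7% ± 9.15 (SD, n = 6) in early pachynema, late pachynema and diplonema. A two-sided exact permutation test over the 210 splits of the 10 lists gave p = 0.224, where the smallest p these splits allow is 0.00476. The excess over all genes was 37.8 ± 4.18 and 36.9 ± 7.13 percentage points (exact permutation p = 0.824). The median width percentile over the 34 genes called in all 10 lists was 41.6 ± 5.10 early and 51.4 ± 8.69 later (exact permutation p = 0.081). The early-minus-later difference of -9.83 percentile points became -2.88 without diplonema experiment 1 (exact permutation p = 0.556), -11.0 without early pachynema experiment 2 (exact permutation p = 0.0317), and -4.27 without genes that have a neighbouring TSS (exact permutation p = 0.338). With equal list sizes all 3 measures passed the threshold, each higher in the later lists. The early-minus-later difference in the share called turned from 6.84 to -27.5 points (exact permutation p = 0.0143), that in the excess from 0.854 to -21.1 points (exact permutation p = 0.0238), and that in the width percentile became -18.8 (exact permutation p = 0.0238), so that the direction for the set depended on how many peaks of each list were kept.

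To set each gene against all others, the width percentile, with 0 where no peak was called, was compared between the 4 early and 6 later lists for the 11488 genes with an H3K4me3 call. No gene passed an adjusted p of 0.05 in the exact permutation test with Benjamini-Hochberg adjustment (0% of genes), since the smallest adjusted p was 0.0752. The smallest exact permutation p these splits allow, 0.00476, was shared by 727 of the 11488 genes, all with that adjusted p. With this number of ties the adjustment could pass no gene, whatever its difference. At an unadjusted p under 0.05, 8 of the 67 oxidative phosphorylation genes tested were higher later (11.9%, against 6.56% of all genes) and 5 were higher early (7.46%, against 14.7%). The 8 were Cox8c, Uqcr11, Ndufs5, Ndufb3, Cox8a, Atp5h, Cox6b2 and Ndufa8. The 5 were Ndufa13, Ndufa10, Atp5g1, Atp5g3 and Atp5mpl. The values of these genes are therefore given below as unadjusted differences, which the adjustment over all genes could not pass.

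**Figure D3:**
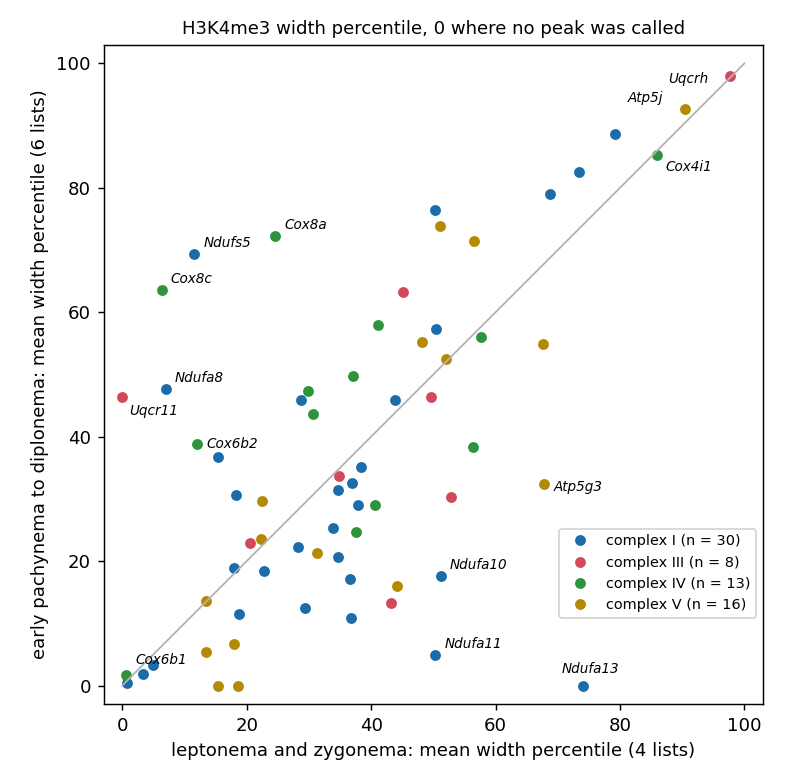
Mean H3K4me3 width percentile of each of the 67 genes with an H3K4me3 call in the 4 leptonema and zygonema lists (horizontal axis) and the 6 later lists (vertical axis), with 0 for a list without a call. Points are coloured by complex and the line marks equal values. Cox8c, Ndufs5, Cox8a and Uqcr11 lie far above the line, and Ndufa13 lies on the horizontal axis at 74.1.

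The testis isoforms Cox8c and Cox6b2 had wider peaks at later stages, without passing the adjustment over all genes. Cox8c, the testis form of subunit VIII of complex IV, is a gene on chromosome 12 with its TSS at position 102899316 (mm10). It had no H3K4me3 peak in experiment 1 of leptonema and zygonema, and peaks of 418 and 270 bp in experiment 2. From then on every list held a peak, of 478 and 483 bp in early pachynema, 512 and 909 bp in late pachynema, and 1223 and 1435 bp in diplonema. All 6 later widths were above all 4 early ones. The mean percentile was 6.36 ± 7.38 (SD, n = 4) early and 63.5 ± 12.8 (SD, n = 6) later (exact permutation p = 0.00476, adjusted p = 0.0752 over 11488 genes). In early pachynema experiment 1 the peak reached from 12 bp to 489 bp downstream of the TSS, and in diplonema experiment 1 from -709 bp to 513 bp.

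Cox8c was also the only one of the 78 genes with an H3K9ac peak in diplonema. That peak was 593 bp wide, after 218 bp in zygonema, 465 bp in early pachynema and 198 bp in late pachynema, with none in leptonema. Its Abcam peaks measured 1090 bp, 957 bp, 1149 bp, 2158 and 2540 bp from leptonema to diplonema. The diplonema H3K9ac list held 516 peaks in all.

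The somatic form Cox8a was called in all 10 H3K4me3 lists, with its widest peaks in diplonema. Its peaks were 420 and 610 bp in leptonema, 433 and 318 bp in zygonema, 792 and 291 bp in early pachynema, 684 and 1043 bp in late pachynema, and 1450 and 2190 bp in diplonema. In bp the periods overlapped, because early pachynema experiment 2 lay below all early lists. On the percentile scale they did not, with 17.2 to 29.6 early and 31.8 to 94.5 later. The mean percentile was 24.6 ± 5.26 early and 72.2 ± 21.7 later (exact permutation p = 0.0143, adjusted p = 0.127). Cox8a was wider than Cox8c in 9 of 10 lists, and the difference between the pair did not pass a test of early against later lists (-18.2 ± 9.75 and -8.71 ± 19.5 percentile points, exact permutation p = 0.471). With the wider peaks or equal list sizes the sign of that difference turned, at 19.2 and 14.7 points. Cox8b, the heart and muscle form, had no peak in any of the 20 lists.

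Cox6b2, the testis form of another complex IV subunit, had no H3K4me3 peak in either leptonema list. It had peaks of 241 and 502 bp in zygonema, 483 and 212 bp in early pachynema, 280 and 728 bp in late pachynema, and 673 and 894 bp in diplonema. The periods overlapped, and the mean percentile was 12.0 ± 19.3 early and 38.8 ± 14.6 later (exact permutation p = 0.0381, adjusted p = 0.194). The somatic Cox6b1 was called in 3 of 10 lists only, at 197 bp in leptonema experiment 2, 160 bp in early pachynema experiment 1 and 265 bp in diplonema experiment 2. Cox6b2 was wider than Cox6b1 in 8 of 10 lists, narrower in leptonema experiment 2, and neither was called in leptonema experiment 1. The difference between the pair was 11.4 ± 19.8 percentile points early and 37.1 ± 13.9 later (exact permutation p = 0.0429, 0.0857 adjusted over the 2 pairs). Without zygonema experiment 2 the early-minus-later difference went from -25.7 to -35.4 points (exact permutation, adjusted p = 0.0238), and with the wider peaks it was -5.85 points (exact permutation, adjusted p = 0.467). Cox6b1 was nevertheless called in all 5 Abcam lists, at 845 bp, 1392 bp, 981 bp, 1562 and 1384 bp from leptonema to diplonema, next to 900 bp, 805 bp, 1385 bp, 1811 and 1810 bp for Cox6b2. Both were called by H3K9ac in zygonema and early pachynema and in no other stage.

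**Figure D4:**
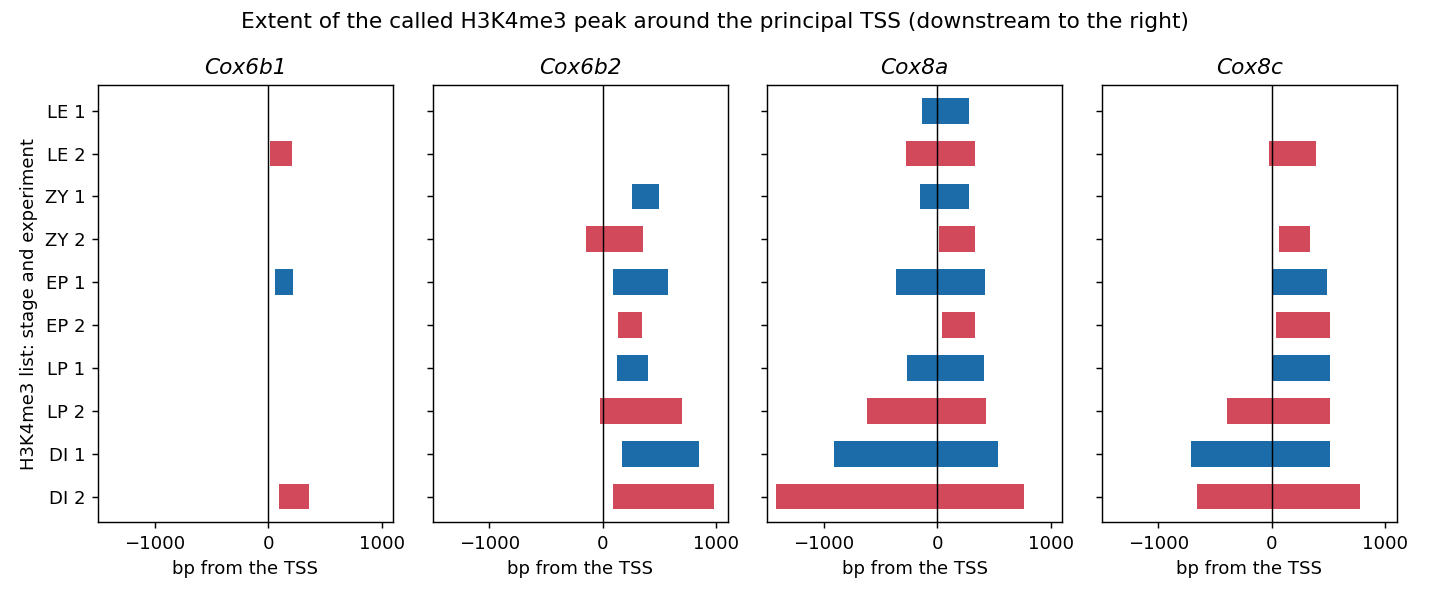
Extent of the called H3K4me3 peak at Cox6b1, Cox6b2, Cox8a and Cox8c in the 10 lists (rows, by stage and experiment number), as distance in bp from the principal TSS, with downstream to the right. Blue bars are experiment 1 and red bars experiment 2. The bars of Cox8a lengthen towards diplonema on both sides of the TSS, and those of Cox8c lengthen mainly upstream from early pachynema on. Those of Cox6b2 lie mostly downstream, and Cox6b1 has 3 short bars.

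Among the other isoforms, Cox4i1, Cox6a1, Cox7a2l and the testis form Cox7b2 were called in all 10 H3K4me3 lists and Cox7a2 in 9. Cox7b2 peaks were 426 bp to 649 bp wide early and 488 bp to 779 bp later, so that the periods overlapped and this testis form was already called in both leptonema lists. The lung form Cox4i2 and the muscle forms Cox6a2 and Cox7a1 had no H3K4me3 peak. Cox4i2 and Cox7a1 had an Abcam peak in leptonema (473 and 854 bp) and no other, and Cox6a2 had none. The same Abcam leptonema list called the Sertoli genes Sox9, Wt1 and Cldn11 and the peritubular and vessel gene Myh11. The part of other cell types in these peaks was not tested.

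The promoters of 3 of these isoforms are shown for comparison of the testis and somatic forms. Sequences are from RefSeq (GRCm38.p6), 5′ to 3′ on the gene's strand, with 250 bases before the start and 20 from it. Capitals mark matches, on either strand, to the letters of motifs searched (CCGGAAG for ETS factors such as GABPA, GGGCGG for SP1, GCGCANGCG for NRF1). Cox6b1 lies at chr7:30626095-30626364, Cox6b2 at chr7:4753075-4753344 and Cox8a at chr19:7217597-7217866, all on the minus strand.
Cox6b1: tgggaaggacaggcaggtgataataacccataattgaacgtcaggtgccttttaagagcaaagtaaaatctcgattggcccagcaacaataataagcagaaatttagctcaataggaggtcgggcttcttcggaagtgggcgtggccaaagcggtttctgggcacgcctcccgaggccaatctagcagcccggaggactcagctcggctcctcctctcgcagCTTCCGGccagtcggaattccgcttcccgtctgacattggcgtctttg
Cox6b2: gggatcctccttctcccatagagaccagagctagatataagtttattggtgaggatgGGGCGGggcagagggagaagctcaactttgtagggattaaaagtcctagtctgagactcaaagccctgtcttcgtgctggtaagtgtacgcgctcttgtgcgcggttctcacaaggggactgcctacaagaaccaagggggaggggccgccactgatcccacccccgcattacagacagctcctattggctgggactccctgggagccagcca
Cox8a: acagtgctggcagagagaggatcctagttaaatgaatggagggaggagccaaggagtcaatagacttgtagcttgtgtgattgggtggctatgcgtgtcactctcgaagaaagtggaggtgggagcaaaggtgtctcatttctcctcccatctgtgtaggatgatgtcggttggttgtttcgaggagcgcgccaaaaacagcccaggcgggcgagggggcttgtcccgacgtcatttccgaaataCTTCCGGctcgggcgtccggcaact
Cox6b1 and Cox8a held an ETS match on the opposite strand, which began 28 and 5 bases before the start, whereas Cox6b2 held only an SP1 match 193 bases before it. In the 300 bases of the promoter table there were 17 CpG dinucleotides in Cox6b1, 19 in Cox8a and 10 in Cox6b2, with a median of 15 over 15686 promoters.

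Outside the isoforms, Uqcr11, a small subunit of complex III, was the single gene called in all 6 later lists and at most 1 early list (1.28%, against 0.351% of all genes). It had no H3K4me3 peak in the 4 leptonema and zygonema lists. Its peaks were 393 and 430 bp in early pachynema, 622 and 438 bp in late pachynema, and 776 and 852 bp in diplonema. The mean percentile later was 46.3 ± 14.0 (SD, n = 6; exact permutation p = 0.00476, adjusted p = 0.0752). The Abcam lists called it at all stages, at 1116 bp in leptonema and 1315 bp in zygonema, and H3K9ac called it in zygonema (444 bp) and early pachynema (1012 bp). No other protein-coding TSS lay within 1000 bp.

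Ndufs5, an accessory subunit of complex I, was picked out after its values were seen, for the same p. It had H3K4me3 peaks of 329 and 427 bp in leptonema and of 317 bp in zygonema experiment 1, with none in experiment 2. The later peaks were 726 and 759 bp in early pachynema, 699 and 856 bp in late pachynema, and 987 and 1194 bp in diplonema, all above the early ones. The mean percentile was 11.6 ± 7.85 early and 69.3 ± 7.14 later. The promoters of both genes are printed as 2 genes whose 6 later peaks were all wider than any early one, Uqcr11 at chr10:80406802-80407071 and Ndufs5 at chr4:123718167-123718436, both on the minus strand, with capitals as before.
Uqcr11: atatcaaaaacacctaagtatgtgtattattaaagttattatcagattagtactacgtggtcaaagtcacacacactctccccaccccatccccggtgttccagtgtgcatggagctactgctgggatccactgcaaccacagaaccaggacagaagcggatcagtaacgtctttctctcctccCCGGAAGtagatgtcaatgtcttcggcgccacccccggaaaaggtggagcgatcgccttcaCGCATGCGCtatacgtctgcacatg
Ndufs5: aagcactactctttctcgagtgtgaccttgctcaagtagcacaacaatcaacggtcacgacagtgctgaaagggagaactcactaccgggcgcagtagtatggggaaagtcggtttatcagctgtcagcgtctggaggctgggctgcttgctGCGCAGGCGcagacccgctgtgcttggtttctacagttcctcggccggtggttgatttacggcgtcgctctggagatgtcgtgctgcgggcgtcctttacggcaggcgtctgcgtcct
Uqcr11 held an ETS match 66 bases and an NRF1 match 5 bases before the start, and Ndufs5 an NRF1 match 98 bases before it.

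Ndufa13, a complex I subunit also known as GRIM-19, had peaks in the early lists only. It was the only one of the genes called in all 4 early lists and at most 1 later list (1.28%, against 1.27% of all genes). Its peaks were 892 and 2206 bp in leptonema and 939 and 633 bp in zygonema, and none of the 6 later lists held a peak within 500 bp. Only the peak of leptonema experiment 2 covered the TSS itself, from -859 bp to 1346 bp. The others began downstream of it, at 280 bp in leptonema experiment 1 and at 209 and 440 bp in zygonema. The mean percentile early was 74.1 ± 16.5 (SD, n = 4; exact permutation p = 0.00476, adjusted p = 0.0752). The Abcam antibody called it at all 5 stages, with peaks of 2216 bp to 3701 bp, and H3K9ac in zygonema (172 bp) and early pachynema (701 bp). Neither H3K9ac peak covered the TSS, at -631 bp to -460 bp in zygonema and 413 bp to 1113 bp in early pachynema. The region also holds the TSSs of Yjefn3, 154 bp away on the same strand, and of Tssk6, a testis-specific kinase gene, so the peak cannot be given to Ndufa13 alone.

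**Figure D5:**
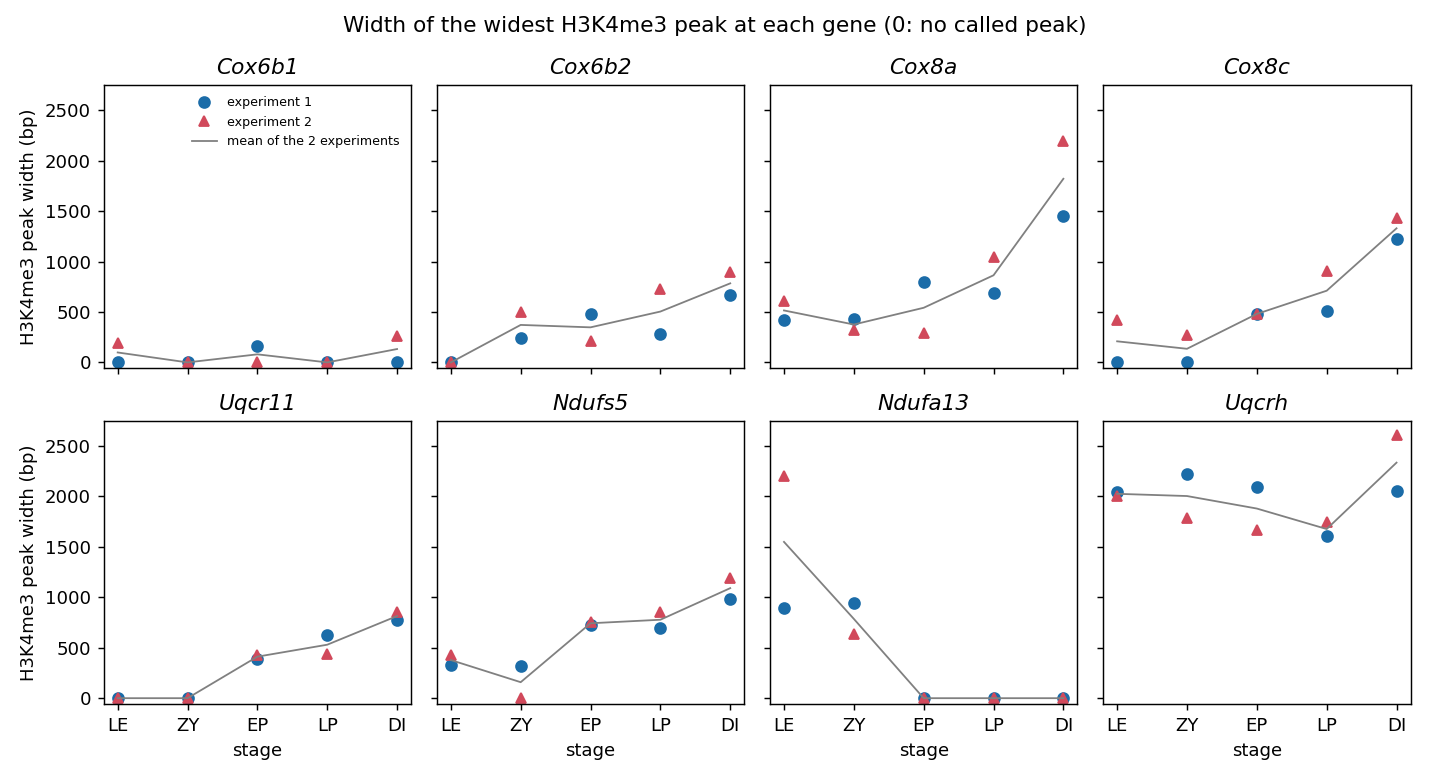
Width in bp of the widest H3K4me3 peak in experiment 1 (circles) and experiment 2 (triangles) at each stage for 8 genes, with 0 for no called peak and a line through the mean of the 2 experiments. Cox8a, Cox8c, Uqcr11 and Ndufs5 are widest in diplonema, Ndufa13 has no peak after zygonema, and Uqcrh lies between 1611 and 2612 bp. The median over all called genes was also large in diplonema, at 764 and 939 bp in experiments 1 and 2.

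The genes of the membrane ring of ATP synthase differed among themselves. Atp5g1, Atp5g2 and Atp5g3 encode the same mature ring protein. Atp5g3 had H3K4me3 peaks of 746 and 830 bp in leptonema, 909 and 1175 bp in zygonema, 710 and 430 bp in early pachynema, 342 and 376 bp in late pachynema, and 415 bp in diplonema experiment 2 alone. All later peaks were narrower in bp than all early ones, whereas the percentiles overlapped, with 50.2 in leptonema experiment 2 and 65.8 in early pachynema experiment 1 (mean percentile 67.9 ± 17.3 early and 32.4 ± 24.3 later, exact permutation p = 0.0381, adjusted p = 0.194). Atp5g1 was called in 3 early lists (735 and 307 bp in leptonema, 225 bp in zygonema experiment 2) and in no later one. Its Abcam peaks of 1834 bp, 1677 bp, 1817 and 540 bp ran from leptonema to late pachynema, with none in diplonema. Atp5g2 was called at 764 bp in leptonema experiment 2, 262 bp in zygonema experiment 1 and 390 bp in early pachynema experiment 1, and by Abcam in diplonema alone (845 bp).

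Among the remaining genes with few calls, Atp5mpl, a small membrane subunit of ATP synthase, had peaks of 280 and 605 bp in leptonema and 377 bp in zygonema experiment 1, and none later. The complex I genes Ndufa3 and Ndufv3 were called in 4 and 2 lists, with no peak over 348 bp, and neither had an H3K9ac peak. Abcam called both at all stages. Ndufa4l2, a hypoxia-induced relative of Ndufa4, had no H3K4me3 peak and an Abcam peak of 2889 bp in leptonema only. That list also called Sox9, Wt1, Cldn11 and Myh11. Ndufa10, chosen after its values were seen, had peaks of 744 and 1697 bp in leptonema, 553 and 317 bp in zygonema, and 273 bp to 334 bp in 5 later lists, with no peak in diplonema experiment 1 (exact permutation p = 0.0238, adjusted p = 0.168).

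Of the 34 genes called in all 10 H3K4me3 lists, those with the largest gain in mean percentile from early to later lists were Cox8a, Ndufv2 (50.3 to 76.4), Atp5h (51.1 to 73.8) and Ndufc1 (15.4 to 36.7). Those with the largest loss were Uqcrc2 (52.9 to 30.3), Cox6a1 (56.4 to 38.3), the catalytic beta subunit gene Atp5b (67.6 to 54.9) and Cox5b (40.6 to 29.1). Cox8a and Atp5h had exact permutation p of 0.0143 and 0.0333, and the other 6 did not reach 0.05 unadjusted.

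H3K9ac was called mainly in zygonema and early pachynema. All 64 genes called by H3K9ac in early pachynema were also called in zygonema. H3K9ac was called in these 2 stages alone at 31 genes (39.7%, against 15.7% of all genes), 16 of them in complex I and 9 in complex V. Every one of the 34 genes called in all 10 H3K4me3 lists had H3K9ac calls in both stages, as did 98.7% of all genes called in all 10 H3K4me3 lists. The fewest H3K9ac calls among these 34 were 2, as at Atp5a1, Atp5c1, Atp5j, Atp5k and Ndufb2. The H3K9ac lists of leptonema, late pachynema and diplonema held 2823, 1727 and 516 peaks, and the part of library depth in the lower counts there was not tested.

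No listed peak lay within 500 bp of a TSS at 8 genes in any of the 20 lists (10.3%, against 31.4% of all genes). Beside the muscle forms Cox6a2 and Cox8b and the Atp5o record ENSMUSG00000116933.1, these were Ndufs7, Ndufs8, Ndufa6 and Ndufb5 of complex I and Atp5f1 of ATP synthase. Ndufs7 and Ndufs8 carry iron-sulfur clusters and belong to the core of complex I. The nearest listed peak lay 1396 bp from a TSS of Ndufa6, 4595 bp from Ndufs8, 6883 bp from Ndufs7, 20139 bp from Ndufb5 and 25056 bp from Atp5f1. Families of genes that all cells use held such genes too, with 6 of 72 ribosomal protein genes, 5 of 78 mitochondrial ribosomal protein genes and 1 of 39 proteasome subunit genes at no call in 20 lists. A site without a listed peak may still carry the mark, and the absence at these 5 subunits was not traced to a step of the processing.

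The promoter letters of the genes were compared with those of all promoters. RefSeq promoters of 300 bases (250 before and 50 from the start) were matched for 60 of the 77 symbols and for 15686 of 20780 symbols in all. The NRF1 letters GCGCANGCG occurred in 17 of 60 promoters (28.3%, against 9.31% of all promoters), and the ETS letters CCGGAAG in 13 (21.7%, against 12.7%). The YY1 letters AAGATGGCG occurred in 6 (10.0%, against 2.05%), and the CRE letters TGACGTCA in 4 (6.67%, against 2.46%). SP1 letters GGGCGG were found in 23 (38.3%, against 49.1%) and the TATA box letters TATAAA in 7 (11.7%, against 13.0%). Both strands were searched, and a match is no evidence of binding. The median number of CpG dinucleotides was 19 in these promoters and 15 in all. It was 20 in the 25 matched genes called in all 10 H3K4me3 lists and 14.5 in the 6 matched genes with no H3K4me3 call, with 2 in Cox8b.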

How the data were processed

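ChIP-Seq peak lists were analysed as deposited. The authors aligned reads to mm10 with BWA 0.7.12 and called broad peaks per library with MACS2 2.1.2 (q of 0.1, input of the same stage as control). This is stated for H3K4me3, and the control for H3K9ac is not given in the sources used here. The deposited values are peak starts and ends with no score or count, so depth is unknown. The antibody field of the H3K9ac samples names H3K4me3, and their titles were followed. The other 31 of 51 samples were not analysed here.

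The genes, lists and named genes were chosen with earlier results of these data known. TSSs were all transcript starts of GENCODE M21, with 500 bp on either side and an overlap of at least 1 bp. The width at a gene is that of its widest such peak, and its percentile is taken among all genes called by that list. Python 3.11.15, numpy 2.4.6 and scipy 1.17.1 were used for exact permutation tests (threshold 0.05), which were tested on simulated data. The tests per gene, the isoform pairs and their alternatives were added after seeing the data. Named genes were the isoforms, genes with calls in 0 to 5 H3K4me3 lists or in early or later lists only, the widest, narrowest and most shifted genes called in all 10 lists, and those with the fewest H3K9ac calls. The markers and the genes of other lists came from hand-written lists.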

Additional observations from a re-analysis of the deposited data

How the results depend on the processing

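Differences are early minus later. The share called stayed higher early under all alternatives except the wider peaks of each list (-1.60 points) and equal list sizes (-27.5 points, exact permutation p = 0.0143), and ranged from 3.97 to 8.85 points when a library was left out. The excess over all genes was near 0 and changed sign with a window of 1000 bp (-0.0276 points), wider peaks (-4.87), equal list sizes (-21.1, exact permutation p = 0.0238), comparison genes with a call in at least 1 of 20 lists (-1.89) and without genes that have a neighbouring TSS (-1.02), and it ranged from -1.17 to 2.83 when a library was left out, below 0 without zygonema experiment 1 (-1.17), diplonema experiment 1 (-1.11) or diplonema experiment 2 (-0.261). The width percentile passed the threshold with equal list sizes (-18.8) and without early pachynema experiment 2 (-11.0), ranged from -11.5 to -2.88 when a library was left out, and was -4.27 without genes that have a neighbouring TSS. With wider peaks or equal list sizes 6 genes were called in all 10 lists, and with wider peaks 23 had no call. The complexes moved with wider peaks (-3.51 for I, -1.19 for III, 2.75 for V) and with equal list sizes (-17.7 for I, -41.5 for III, -34.3 for IV, -6.11 for V). The Cox8c and Cox8a pair turned to 19.2 with wider peaks and 14.7 with equal list sizes, and the Cox6b2 and Cox6b1 pair ranged from -35.4 to -21.0 when a library was left out, passing the threshold without zygonema experiment 2, and was -5.85 with wider peaks. The wider peaks are those at or above the median width of a list. Equal list sizes keep the 4883 widest of each H3K4me3 list and the 516 widest of each H3K9ac list. Over 8 alternatives the H3K9ac counts ranged from 1 to 65 genes in zygonema and from 2 to 64 in early pachynema. The counts of 1 and 2 came from equal list sizes, and wider peaks gave 42 and 37. The other alternatives gave 63 to 65 in zygonema and 61 to 64 in early pachynema. The Abcam counts ranged from 54 to 69. The causes were not tested. No read count is given, so that depth limits each list to an unknown extent.

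Experiment numbers were not shown to pair the libraries, since the correlation of the difference between experiments 1 and 2 passed 0.1 in 1 of 10 stage pairs. With the experiment number as a block, the differences were 6.84 points (exact permutation p = 0.25), 0.854 points (p = 0.84) and -9.83 percentile points (p = 0.10), and no call changed.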

Other observations

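Genes that work beside the complexes were read from the same lists. Among 6 testis forms of mitochondrial proteins, Cyct, the testis cytochrome c, had an H3K4me3 peak of 241 bp in leptonema experiment 2 and none in the other 3 early lists. Its later peaks were 533 bp and 320 bp in early pachynema, 363 bp and 471 bp in late pachynema, and 659 bp and 1126 bp in diplonema, all wider than the early one (exact permutation p = 0.00476, adjusted p = 0.0752 over all genes). Pdha2, the testis form of a pyruvate dehydrogenase subunit, was called by H3K4me3 in leptonema experiment 2 (2140 bp) and diplonema experiment 2 (2006 bp) alone. Abcam called Pdha2 in leptonema (1541 bp), late pachynema (3720 bp) and diplonema (3967 bp), and H3K9ac in early pachynema (813 bp). The somatic cytochrome c gene Cycs had no listed peak in any of the 20 lists. Slc25a31, the testis carrier of ADP and ATP, was called in all 10 H3K4me3 lists, with a mean width of 866 bp early and 974 bp later. Its somatic relative Slc25a4 was called by H3K4me3 in late pachynema experiment 2 (210 bp) and diplonema experiment 2 (236 bp), and by Abcam at every stage but zygonema.

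Of 48 assembly factor genes, 24 were called in all 10 H3K4me3 lists and 4 (Sdhaf1, Cox14, Sco2 and Surf1) in none of the 20 lists. None passed the adjusted threshold in either direction. Ndufaf7, which methylates a complex I subunit, had a mean width of 702 bp early and 1019 bp later. Coa7, a complex IV factor, had peaks in all 4 early lists (267 bp to 794 bp) and in 2 later ones (221 bp and 149 bp). Among 13 transcription regulators, Nrf1, Gabpa, Gabpb1, Yy1 and Tfb2m were called in all 10 H3K4me3 lists and the coactivators Ppargc1a and Ppargc1b in none of them. Abcam called Ppargc1a in leptonema (926 bp) and Ppargc1b in leptonema (1948 bp), zygonema (1795 bp) and late pachynema (155 bp). The complex II genes Sdha, Sdhb, Sdhc and Sdhd were called in all 10 lists, and Sdhd had a mean width of 671 bp early and 976.5 bp later (exact permutation p = 0.00476, adjusted p = 0.0752).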
